A study of Homo sapiens with 12 samples.

Results

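A set of 35 genes that act in the G2 phase and in mitosis was examined in human 293T cells carrying hairpins against RBFOX2. The members were taken from a list of cyclins, CDK1 and its phosphatases, mitotic kinases, checkpoint, anaphase, spindle, cytokinesis and centromere genes, with the proliferation markers TOP2A and MKI67. Array probe sets were assigned to a member where the platform annotation gave that gene as their single symbol, which gave 1583 of the 672085 probe sets with 1 symbol. A gene value could be formed for 34 of the 35 members among 16648 genes in all. The remaining member, BUB1B, a spindle checkpoint kinase-like protein, has no value because its 96 probe sets also carry the symbol of a second gene.

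RNA was measured on 12 exon and junction arrays in 4 groups of 3: cells with shRNA1, shRNA2 or shRNA3, which are 3 different hairpins against RBFOX2, and cells with a non-target control hairpin, SHC016. 293T cells derive from human embryonic kidney and express large T antigen of SV40, which binds cell cycle regulators of the retinoblastoma family, so all 4 groups carry it. Hairpins came from lentivirus, and infected cells of every group were selected with puromycin at 1 ug/mL for 10 days, starting 48 hours after infection, before Trizol extraction of total RNA. All cells, controls included, were therefore transduced and drug-selected, and every comparison with control used the same 3 control arrays.

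Cells enter mitosis when CDK1 bound to a B-type cyclin is activated, and they leave it when the anaphase-promoting complex marks those cyclins and securin for destruction. Most genes of this group are transcribed in G2 and M phase. This timing is set by the DREAM and MuvB complexes and the transcription factors B-MYB, FOXM1 and NF-Y. MuvB binds a promoter element called the cell cycle genes homology region (CHR), and NF-Y binds CCAAT boxes, often a pair of them upstream of a CHR. RBFOX2, the gene aimed at by the hairpins, encodes a protein that binds RNA and directs alternative splicing. In bulk RNA of this kind, fewer cells in a phase and less of an RNA per cell cannot be told apart.

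Promoters of 4 members are shown because these genes carry the changes described below and come from different roles: CCNB1, CDC20 and KIF4A were among the members lower with shRNA3, and NUSAP1 was higher with shRNA1 and shRNA2. Each is the stretch of 250 bases before the RefSeq transcription start (GRCh38.p14), on the gene's own plus strand. Capitals mark CHR letters (TTTGAA or TTTAAA, or TTCAAA for the reverse strand) and CCAAT boxes (CCAAT, or ATTGG for the reverse strand).
CCNB1, chr5:69166900-69167149: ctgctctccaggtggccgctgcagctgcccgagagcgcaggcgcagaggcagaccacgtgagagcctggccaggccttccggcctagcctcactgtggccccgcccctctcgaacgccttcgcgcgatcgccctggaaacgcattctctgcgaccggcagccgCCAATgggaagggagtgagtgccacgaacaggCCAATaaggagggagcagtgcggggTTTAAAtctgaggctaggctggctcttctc
CDC20, chr1:43358731-43358980: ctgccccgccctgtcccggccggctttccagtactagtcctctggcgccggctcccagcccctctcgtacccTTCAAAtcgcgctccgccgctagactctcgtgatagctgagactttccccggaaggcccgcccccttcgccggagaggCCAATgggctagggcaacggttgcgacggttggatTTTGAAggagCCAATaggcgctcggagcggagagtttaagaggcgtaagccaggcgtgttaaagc
KIF4A, chrX:70289854-70290103: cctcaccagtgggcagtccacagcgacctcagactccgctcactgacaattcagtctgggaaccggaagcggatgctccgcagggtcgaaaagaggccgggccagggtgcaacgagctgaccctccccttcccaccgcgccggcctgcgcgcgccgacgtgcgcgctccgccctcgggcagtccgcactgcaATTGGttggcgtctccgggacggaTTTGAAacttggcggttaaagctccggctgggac
NUSAP1, chr15:41332631-41332880: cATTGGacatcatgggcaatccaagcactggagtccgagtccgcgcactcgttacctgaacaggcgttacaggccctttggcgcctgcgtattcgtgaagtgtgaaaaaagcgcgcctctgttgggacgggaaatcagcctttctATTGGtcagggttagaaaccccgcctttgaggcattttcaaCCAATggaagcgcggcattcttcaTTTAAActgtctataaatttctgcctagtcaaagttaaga

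Counting the base before the start as -1, the first base of the CHR letters stood at -30 in CCNB1, at -178 and -65 in CDC20, at -34 in KIF4A and at -40 in NUSAP1. CCAAT boxes began at -87 and -55 in CCNB1, at -100 and -55 in CDC20, at -58 in KIF4A and at -249, -105 and -64 in NUSAP1. RefSeq promoter entries were at hand for 29 of the 35 members, and AURKA, BUB3, TTK, UBE2C, TPX2 and BIRC5 are named only. Of those 29 promoters, 21 (72.4%) held CHR letters, against 22.1% of all 27305 promoters of the same length. A CCAAT box was found in 24 (82.8%), against 33.0% of all promoters, and at least 2 boxes in 14 (48.3%), against 10.0%. Both motifs stood in 19 of the 29 (65.5%), against 7.9% of all promoters. The members' windows had a GC content of 61.2%, against 58.0% for all promoters, and the motifs overlapped by 1 base in MKI67 and in no other member. Of the 8 matched members that were lower with shRNA3, 7 held CHR letters and 8 a CCAAT box. Of the other 20 with a gene value, 13 and 16 did. At least 2 boxes stood in 4 of those 8 and in 10 of those 20, an equal share. AURKA, TTK and UBE2C were also lower with shRNA3 but had no promoter entry. The motif counts of the lower and other members were not tested against each other. These matches are letters in a window and do not show binding.

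RBFOX2 itself was lower on every knockdown array. RBFOX2 gene values were 8.59, 8.54 and 8.51 with shRNA1, 9.10, 9.11 and 9.16 with shRNA2, 8.82, 8.84 and 8.85 with shRNA3, and 9.59, 9.58 and 9.58 with control, on a log2 scale. No array of a knockdown group overlapped the controls. The log2 changes were -1.04 with shRNA1, -0.46 with shRNA2 and -0.74 with shRNA3, each with a standard error (SE) of 0.03, and limma's adjusted p was 2.09e-10, 4.79e-06 and 2.14e-08 for them in that order. A gene value here is the mean deposited log2 value of a gene's kept probe sets, and a gene was called changed at an adjusted p below 0.05 over all 16648 genes. Genes used as markers of the 293 lineage were present: NEFL averaged 9.73, NEFM 8.96 and VIM 10.2 over the 12 arrays. Genes of blood (PTPRC 4.10, CD3E 5.28), liver (ALB 4.07), endothelium (PECAM1 4.48, CDH5 5.84) and stroma (DCN 3.86, LUM 3.94) averaged below the level filter of 6.53. APOA1 (6.89) and COL1A1 (7.91) lay above it.

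Changes of the G2 and mitosis genes were small with each hairpin. The members' log2 changes against control lay between -0.20 and 0.21 over the 3 hairpins, and none of the 34 reached 1.5-fold. With shRNA3, 11 members fell and none rose, with shRNA1 2 fell and 1 rose, and with shRNA2 3 fell and 3 rose. CCNB1 and AURKA fell with all 3 hairpins. NUSAP1 rose with shRNA1 and shRNA2, and 20 members were called with no hairpin.

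Over all genes tested, shRNA1 gave calls for 10.1% (4.07% lower and 5.99% higher), shRNA2 for 14.5% (8.63% lower and 5.92% higher) and shRNA3 for 26.8% (14.8% lower and 12% higher). The members' share called lower was 5.88% with shRNA1 and 8.82% with shRNA2, near those backgrounds. With shRNA3 the share called lower was 32.4%, above the 14.8% of all genes. The members' median log2 change was -0.02 with shRNA1, -0.01 with shRNA2 and -0.08 with shRNA3, while the median over all genes was -0.01, 0.00 and 0.02 for the same hairpins. A call in the same direction with all 3 hairpins was made for 2 members lower and 0 higher, against 2.17% and 2.5% of all genes (4.68% together).

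**Figure D1:**
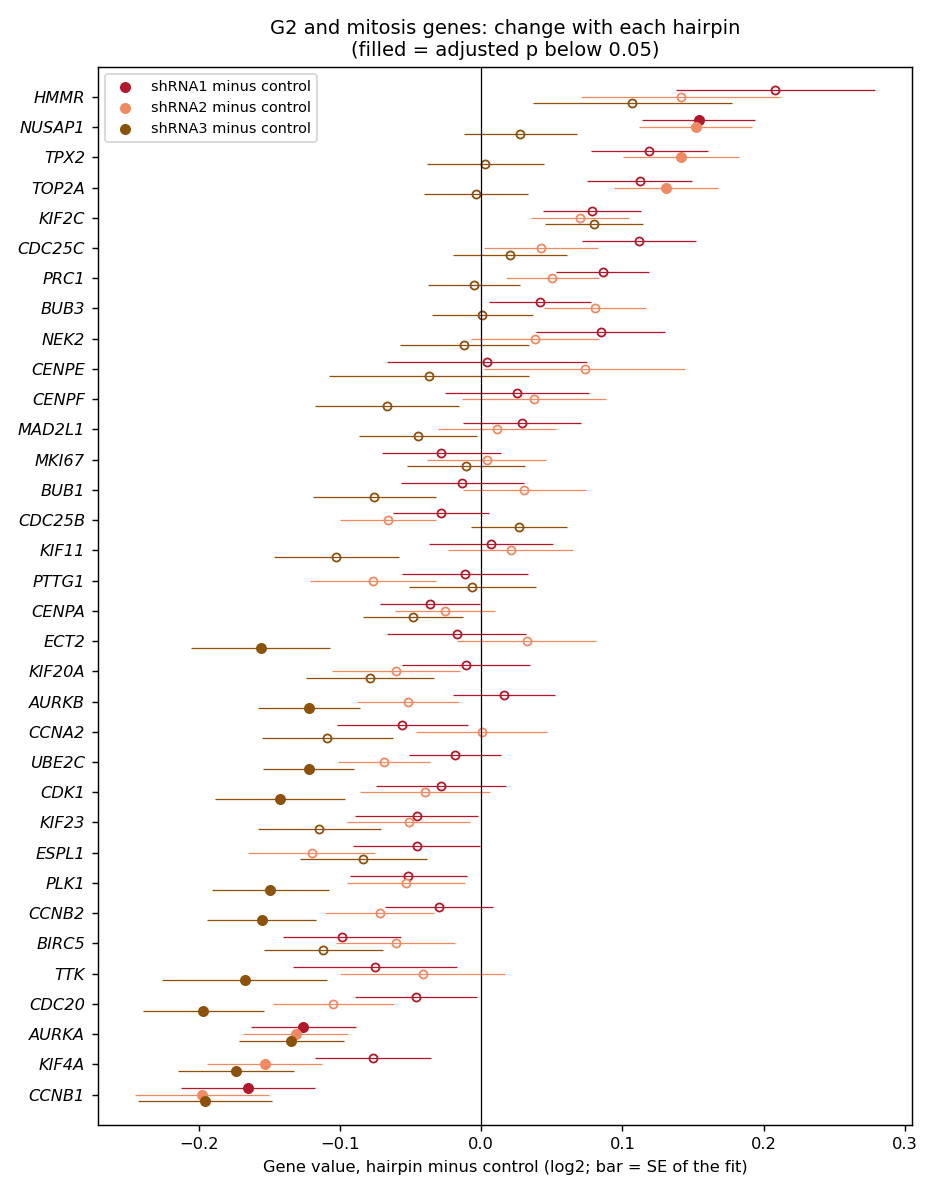
Log2 change of each of the 34 measured G2 and mitosis genes (down the page, ordered by the mean over hairpins) with shRNA1, shRNA2 and shRNA3 against control; bars are the SE of the fit, and filled points have an adjusted p below 0.05. All changes lie between -0.20 and 0.21, and the filled points for shRNA3 are all on the negative side.

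Among the regulators of CDK1, CCNB1 stood out. CCNB1 encodes cyclin B1, the partner of CDK1 that drives entry into mitosis. Its gene value was 10.53, 10.53 and 10.60 with shRNA1, 10.61, 10.43 and 10.52 with shRNA2, 10.51, 10.52 and 10.54 with shRNA3, and 10.80, 10.67 and 10.68 with control. Every knockdown array lay below every control array, and control replicate 1 was the highest of the 12. CCNB1 fell to 89.2% of control with shRNA1, 87.2% with shRNA2 and 87.3% with shRNA3 (log2 changes -0.17, -0.20 and -0.20, SE 0.05, n = 3, limma's adjusted p 0.0421, 0.0143 and 0.00934). The direction was shared within the gene: 24, 24 and 25 of its 25 kept probe sets were lower with shRNA1, shRNA2 and shRNA3. Without control replicate 1 the call with shRNA1 was lost (-0.12, adjusted p 0.170) and so was that with shRNA2 (-0.16, adjusted p 0.0686), while that with shRNA3 held. The call with shRNA1 was lost on leaving out any other control array, shRNA1 replicate 1 or 2, or any shRNA3 array, and that with shRNA2 also without shRNA2 replicate 2 (-0.15, adjusted p 0.0678). With the median of its probe sets in place of their mean, none of the 3 was called (adjusted p 0.375, 0.269 and 0.235).

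The other B-type cyclin, CCNB2, was called with shRNA3. Its values were 10.55, 10.60 and 10.54 with shRNA3 and 10.74, 10.72 and 10.70 with control, with no overlap (-0.16, SE 0.04, adjusted p 0.0103). With shRNA1 and shRNA2 the changes were -0.03 and -0.07, and those arrays overlapped the controls. The CCNB2 call with shRNA3 held without each array in turn but was lost with the median of its probe sets. CDK1, the kinase itself, was called lower with shRNA3 (-0.14, adjusted p 0.0348), but its shRNA3 values (9.68, 9.73 and 9.62) overlapped the control values (9.90, 9.85 and 9.71). Its call was lost without control replicate 1 or 2, or without shRNA3 replicate 1 or 3. CCNA2, cyclin A2, had changes of -0.06, 0.00 and -0.11 with shRNA1, shRNA2 and shRNA3 and was not called. The CDK1-activating phosphatases CDC25B and CDC25C, with changes from -0.07 to 0.11, were not called either.

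AURKA led the mitotic kinases. AURKA encodes Aurora A, a kinase of centrosomes and spindle poles. Its gene value was 10.23, 10.24 and 10.26 with shRNA1, 10.28, 10.23 and 10.21 with shRNA2, 10.22, 10.28 and 10.21 with shRNA3, and 10.43, 10.32 and 10.35 with control. The 9 knockdown arrays lay within a narrow band, all below the controls, and control replicate 1 was again the highest. AURKA fell to 91.6%, 91.3% and 91.1% of control with shRNA1, shRNA2 and shRNA3 (-0.13 for each, SE 0.04, n = 3, limma's adjusted p 0.0462, 0.0300 and 0.0177). Of its 44 kept probe sets, 40, 37 and 41 were lower with these hairpins. Without control replicate 1 none of the 3 calls held, with adjusted p-values of 0.181, 0.130 and 0.0819. They were also lost without control replicate 3, any shRNA1 array, or shRNA3 replicate 1 or 3 for shRNA1, without control replicate 3 or shRNA2 replicate 2 or 3 for shRNA2, and without shRNA3 replicate 1 or 3 for shRNA3. With replicate numbers as a block, the adjusted p with shRNA1 was 0.0600, and with the median of probe sets it was 0.267 with shRNA1 and 0.0963 with shRNA2.

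AURKB, Aurora B of the chromosomal passenger complex, fell with shRNA3, where its values were 10.04, 10.09 and 10.05 against 10.22, 10.15 and 10.18 with control (-0.12, SE 0.04, adjusted p 0.0242). PLK1, a kinase needed for mitotic entry and spindle assembly, fell with shRNA3 too, at 11.08, 11.10 and 11.05 against 11.22, 11.23 and 11.22 with control (-0.15, SE 0.04, adjusted p 0.0185). Neither gene overlapped the controls with shRNA3, and neither was called with the other hairpins. The AURKB call was lost without control replicate 1 or 3, or shRNA3 replicate 1 or 3, and the PLK1 call without shRNA3 replicate 1 or 3. With the median of probe sets both calls were lost, and the AURKB change was -0.01 (limma's adjusted p 0.959). NEK2, a centrosomal kinase, had changes of 0.08, 0.04 and -0.01 with shRNA1, shRNA2 and shRNA3 and was not called.

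Genes of the spindle checkpoint, which delays anaphase until chromosomes are attached, moved little. TTK, the checkpoint kinase also named MPS1, was the only one of the 4 measured that was called, and it fell with shRNA3. Its values were 9.14, 9.17 and 9.03 with shRNA3 and 9.43, 9.23 and 9.18 with control, with control replicate 1 standing apart (-0.17, SE 0.06, adjusted p 0.0467). The TTK call was lost without control replicate 1, any shRNA1 array, or shRNA3 replicate 1 or 3. With the median of its probe sets, or with exon probe sets only, TTK was not called either. BUB1, BUB3 and MAD2L1, which act at unattached kinetochores, had changes from -0.08 to 0.08.

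CDC20 and UBE2C led the genes of anaphase. CDC20 encodes the activator through which the anaphase-promoting complex recognises its substrates. Its gene value was 10.42, 10.46 and 10.48 with shRNA1, 10.51, 10.31 and 10.37 with shRNA2, 10.32, 10.31 and 10.29 with shRNA3, and 10.51, 10.49 and 10.51 with control. The shRNA1 and shRNA3 arrays lay below all controls, those of shRNA3 the furthest, and 1 shRNA2 array reached the controls. CDC20 fell to 87.2% of control with shRNA3 (-0.20, SE 0.04, adjusted p 0.00542), with changes of -0.05 for shRNA1 and -0.10 for shRNA2 that were not called. The call with shRNA3 held on leaving out each of the 12 arrays in turn. UBE2C, the E2 enzyme of the same complex, fell with shRNA3, at 9.40, 9.45 and 9.47 against 9.60, 9.57 and 9.53 with control (-0.12, SE 0.03, adjusted p 0.0149), a call lost without control replicate 1 or shRNA3 replicate 1. PTTG1 (securin) and ESPL1 (separase), with changes from -0.12 to -0.01, were not called.

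Spindle genes moved in both directions. KIF4A, a chromosome-bound kinesin, had gene values of 9.37, 9.44 and 9.42 with shRNA1, 9.41, 9.25 and 9.34 with shRNA2, 9.29, 9.36 and 9.29 with shRNA3, and 9.51, 9.45 and 9.50 with control. Every knockdown array lay below every control array. KIF4A fell to 89.9% of control with shRNA2 and 88.7% with shRNA3 (-0.15 and -0.17, SE 0.04, adjusted p 0.0235 and 0.00821), and with shRNA1 the change was -0.08 (adjusted p 0.260). The call with shRNA3 held without each array in turn, and that with shRNA2 was lost without control replicate 1 or 3 or shRNA2 replicate 2.

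NUSAP1, a microtubule-bundling protein of the spindle, went the other way. Its gene value was 10.73, 10.81 and 10.75 with shRNA1, 10.74, 10.80 and 10.75 with shRNA2, 10.69, 10.66 and 10.56 with shRNA3, and 10.64, 10.63 and 10.57 with control. All shRNA1 and shRNA2 arrays lay above the controls, and the shRNA3 arrays overlapped them. NUSAP1 rose to 111% of control with shRNA1 and 111% with shRNA2 (0.15 each, SE 0.04, adjusted p 0.0278 and 0.0222), and its change with shRNA3 was 0.03. The call with shRNA1 was lost without any single control or shRNA1 array, and that with shRNA2 without control replicate 3 or shRNA2 replicate 2. With the median of its probe sets, neither NUSAP1 call held.

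TPX2, which activates Aurora A on spindle microtubules, had values of 11.03, 11.10 and 11.13 with shRNA1, 11.17, 11.04 and 11.12 with shRNA2, 11.00, 11.01 and 10.91 with shRNA3, and 10.98, 10.97 and 10.96 with control. Its shRNA1 and shRNA2 arrays lay above the controls. TPX2 rose with shRNA2 (0.14, SE 0.04, adjusted p 0.0343), while shRNA1 gave 0.12 (adjusted p 0.0834) and shRNA3 0.00. With replicate numbers as a block, its adjusted p with shRNA2 was 0.0525, and the call was lost without any single control array or shRNA2 replicate 1 or 3. The TPX2 call was also lost with the median of its probe sets and with exon probe sets only. The motor KIF11, needed for a bipolar spindle, had changes of 0.01, 0.02 and -0.10, and the microtubule depolymerase KIF2C 0.08, 0.07 and 0.08, with no call. HMMR, a spindle protein that is also a hyaluronan receptor, had the highest single change, 0.21 with shRNA1, but its SE was 0.07 and it was not called (adjusted p 0.0774). With replicate numbers as a block, HMMR was called higher with shRNA1 (adjusted p 0.0442).

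**Figure D2:**
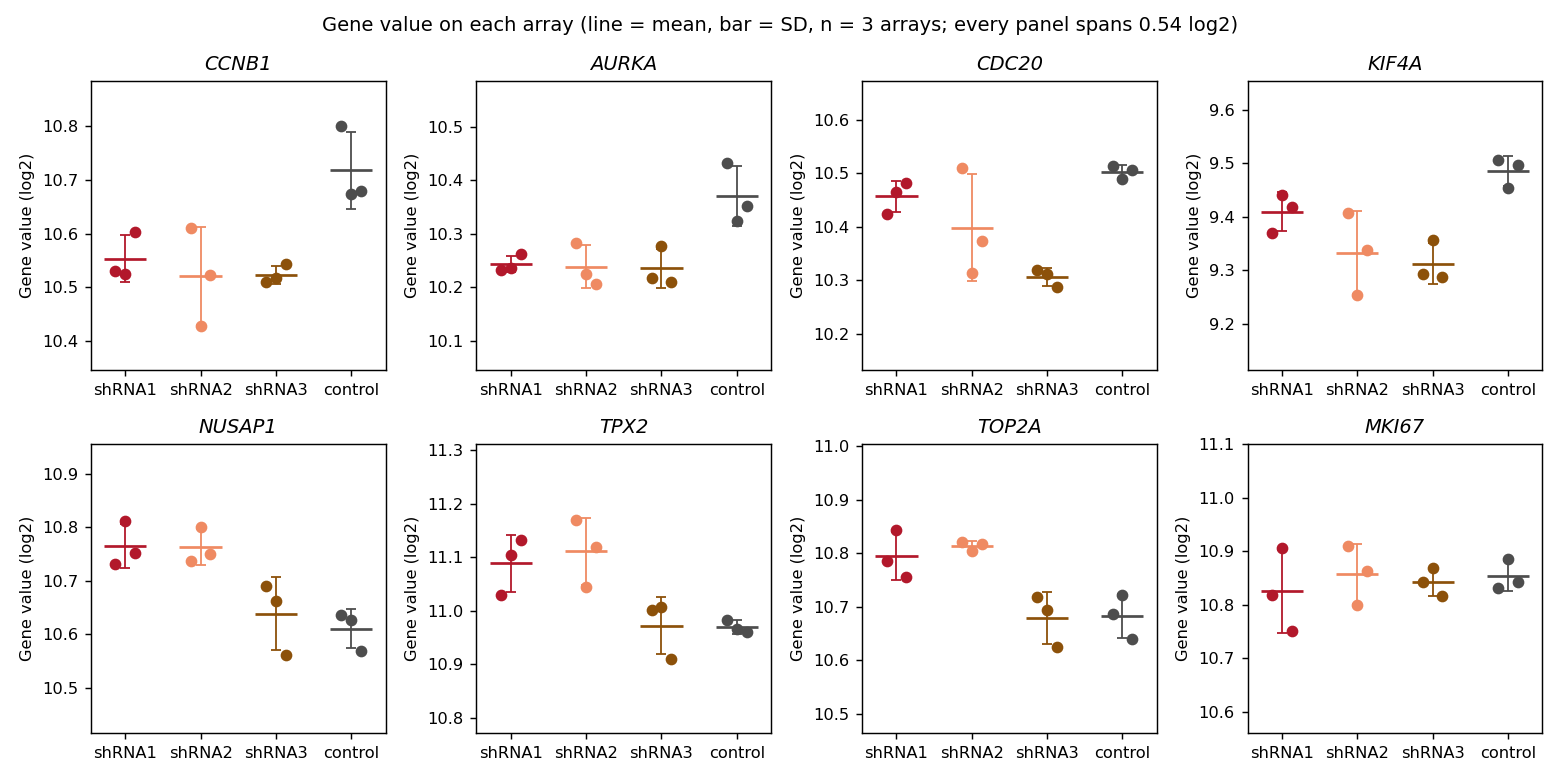
Gene values (log2) of 8 members on each of the 12 arrays; points are arrays, lines group means and bars the SD of 3 arrays, with shRNA1, shRNA2, shRNA3 and control from left to right. CCNB1, AURKA and KIF4A lie below every control array with each hairpin, NUSAP1 lies above with shRNA1 and shRNA2, and MKI67 overlaps in all groups.

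In cytokinesis, only ECT2 was called at the gene level. ECT2 encodes a RhoA exchange factor that sets the cleavage furrow. Its values were 9.76, 9.76 and 9.61 with shRNA3 and 9.92, 9.84 and 9.83 with control, with no overlap (-0.16, SE 0.05, adjusted p 0.0314). Its changes with shRNA1 and shRNA2 were -0.02 and 0.03. The call was lost without control replicate 1 or 3 or shRNA3 replicate 3, and without its 2 exon probe sets described below the change with shRNA3 was -0.13 (adjusted p 0.0653). The ECT2 call was also lost with the median of its probe sets. KIF20A, KIF23 and PRC1, of the central spindle, had changes from -0.11 to 0.09 and were not called.

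The centromere genes CENPA, CENPE and CENPF and the passenger protein BIRC5 (survivin) were not called with any hairpin, with changes from -0.11 to 0.07. TOP2A, the topoisomerase that untangles chromosomes, rose with shRNA2, at 10.82, 10.80 and 10.82 against 10.69, 10.72 and 10.64 with control (0.13, SE 0.04, adjusted p 0.0296). Its values with shRNA1 (10.78, 10.84 and 10.76) also lay above the controls, but that change of 0.11 was not called (adjusted p 0.0693), and with shRNA3 the change was 0.00. The TOP2A call was lost without control replicate 1 or 3 or shRNA2 replicate 2 or 3. MKI67, the gene of the proliferation marker Ki-67, had changes of -0.03, 0.00 and -0.01, and its 4 groups overlapped.

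The number of members whose arrays did not overlap the controls was also counted. With shRNA1, 5 of 34 members lay below all controls and 8 above, against 19.1% and 16.1% of all genes. With shRNA2, 5 lay below and 3 above, against 16.9% and 12.6%. With shRNA3, 14 lay below and 1 above, against 23.7% and 24.3%, and the member above was KIF2C.

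The count of members called with shRNA3 depended on single arrays. The members' mean deviation from their own 12-array means was 0.003, 0.036 and 0.024 with shRNA1, 0.045, -0.027 and 0.011 with shRNA2, -0.044, -0.016 and -0.091 with shRNA3, and 0.055, 0.007 and -0.005 with control. All 3 shRNA3 arrays were below 0, shRNA3 replicate 3 was the lowest array for 18 of 34 members, and control replicate 1 was the highest for 12. The median deviation of all genes lay between -0.02 and 0.02 on every array. Without control replicate 1, 5 of 34 members were called lower with shRNA3, against 8.58% of all genes lower. Without shRNA3 replicate 1 the count was also 5 (against 7.59%), and without shRNA3 replicate 3 again 5 (against 10.1%). CCNB1, CCNB2, CDC20 and KIF4A were among the 5 each time. With both control replicate 1 and shRNA3 replicate 3 left out, a setting chosen after the data were seen, no member was called lower, against 5.59% of all genes lower, and 1 was called higher.

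**Figure D3:**
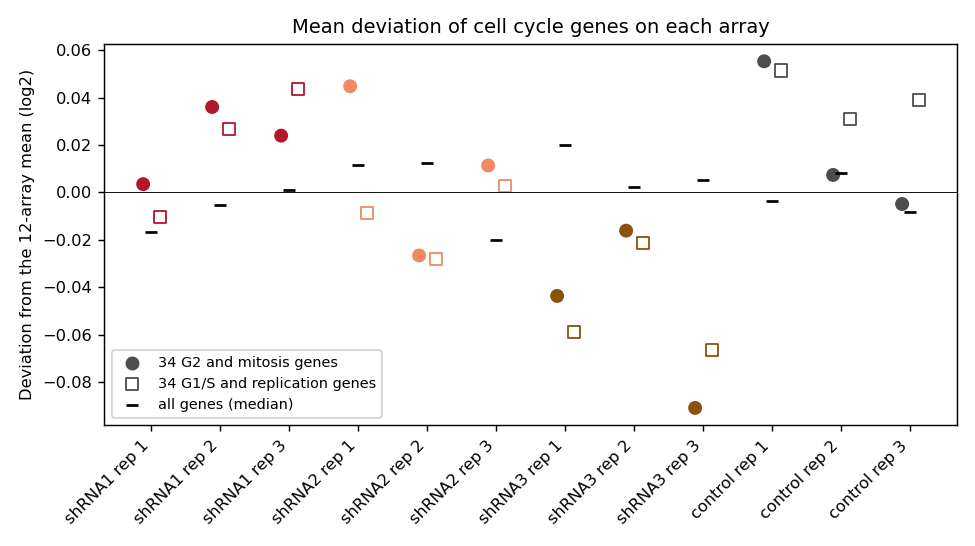
Mean deviation (log2) from the 12-array mean of 34 G2 and mitosis genes (filled circles) and 34 G1/S and replication genes (open squares) and the median deviation of all genes (black dashes) on each array, shRNA1 to the left and control to the right. The circle of shRNA3 replicate 3 is the lowest at -0.091, and that of control replicate 1 the highest at 0.055.

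Differences between hairpins were tested directly. Between shRNA3 and shRNA1, 2 members were called lower and none higher, against 4.15% and 2.95% of all genes (7.1% together). These were AURKB (-0.14, SE 0.04, adjusted p 0.0377) and CDC20 (-0.15, SE 0.04, adjusted p 0.0492), and with replicate numbers as a block neither was called (adjusted p 0.0536 and 0.0621). No member was called there without control replicate 3 (against 4.85% of all genes) or shRNA3 replicate 1 or 3 (1.75% and 2.03%). The same held without any single shRNA1 array, against 2.17% to 2.26% of all genes. Without shRNA2 replicate 1 and 3, 3 and 4 members were called lower, against 5.69% and 6.18% of all genes lower. Between shRNA2 and shRNA1 limma called no member, against 0.745% of all genes lower and 0.444% higher (1.19% together). There 0 of 34 members had an unadjusted p below 0.05, against 2237 of all 16648 genes. Between shRNA3 and shRNA2 limma called none either, against 2.02% lower and 1.54% higher (3.56% together). There 13 of 34 members had an unadjusted p below 0.05, against 3516 of all 16648 genes. Without shRNA2 replicate 2, 5 members were called lower with shRNA3 than with shRNA2, against 4.7% of all genes lower. The rises of NUSAP1, TPX2 and TOP2A with shRNA1 or shRNA2 were therefore not shown to differ from their changes with shRNA3. In the mean of the 3 hairpins against control, CCNB1 (-0.19), AURKA (-0.13), CDC20 (-0.12) and KIF4A (-0.13) were called lower and NUSAP1 (0.11) higher, against 12.8% and 10.3% of all genes (23.1% together). With single arrays left out, the members called in that mean numbered 2 without control replicate 1 (against 11.2% of all genes in either direction), 3 without control replicate 2 (18.4%) and 3 without control replicate 3 (12.9%). They numbered 9 without shRNA2 replicate 1 (27.9%) and 8 without shRNA3 replicate 3 (21.7%). HMMR was called higher in that mean as well with replicate numbers as a block (adjusted p 0.0375).

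The array also reads single exons and exon-exon junctions. Each of the members' 1356 kept probe sets (788 exon, 568 junction) was compared, array by array, with the average of its gene's remaining kept probe sets, which measures unequal change within a gene. Calls required a difference of at least 1.5-fold and an adjusted p below 0.05 over 417377 probe sets. That gave 1 member probe set with shRNA1 (0.0737%, against 0.129% of all), 6 with shRNA2 (0.442%, against 0.22%) and 5 with shRNA3 (0.369%, against 0.195%). In all, 10 probe sets of 9 genes were called with any hairpin, 2 exons and 8 junctions, and none with all 3.

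An exon of ECT2 had the smallest adjusted p. The relative value of exon probe set PSR03016158.hg.1 was -2.74, -2.77 and -2.75 with shRNA1, -2.47, -2.51 and -2.43 with shRNA2, -3.29, -2.83 and -3.08 with shRNA3, and -2.01, -1.94 and -2.14 with control. All 9 knockdown arrays lay below the controls, those of shRNA3 the lowest. It fell 1.65-fold with shRNA1 (-0.72, adjusted p 0.0101) and 2.05-fold with shRNA3 (-1.04, adjusted p 0.000742), and shRNA2 gave -0.44 (adjusted p 0.0530), with an SE of 0.10. The shRNA3 call held without each array in turn, while that with shRNA1 was lost without control replicate 1 or shRNA1 replicate 2 or 3. Its own log2 value averaged 6.70 with shRNA3, close to the level filter of 6.53.

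A second ECT2 exon probe set, PSR03016159.hg.1, had relative values of -1.65, -1.25 and -1.85 with shRNA3 and -0.84, -0.92 and -0.98 with control. It fell with shRNA3 (-0.67, SE 0.12, adjusted p 0.0365), and its changes with shRNA1 and shRNA2 were -0.65 (adjusted p 0.0546) and -0.48 (adjusted p 0.0780). All knockdown arrays lay below the controls here too, yet the call was lost without any single control array, shRNA1 replicate 2, or shRNA3 replicate 1 or 3, and with replicate numbers as a block (adjusted p 0.0655). Where these exons lie in ECT2 is not given in the sources used here.

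A junction of CDC25B had the largest change. The relative value of JUC20000312.hg.1 was -1.88, -2.06 and -1.79 with shRNA1, -1.95, -2.64 and -2.55 with shRNA2, -2.75, -2.45 and -2.30 with shRNA3, and -1.06, -1.30 and -1.03 with control. All knockdown arrays were lower than every control array. It fell 2.38-fold with shRNA2 (-1.25, SE 0.17, adjusted p 0.0150) and 2.58-fold with shRNA3 (-1.37, adjusted p 0.00591), and shRNA1 gave -0.78 (adjusted p 0.0826). The gene value of CDC25B, a phosphatase with several known splice forms, was not called with any hairpin. The shRNA2 call was lost without control replicate 3 (-1.20, adjusted p 0.0689), and the shRNA3 call held without each array in turn.

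**Figure D4:**
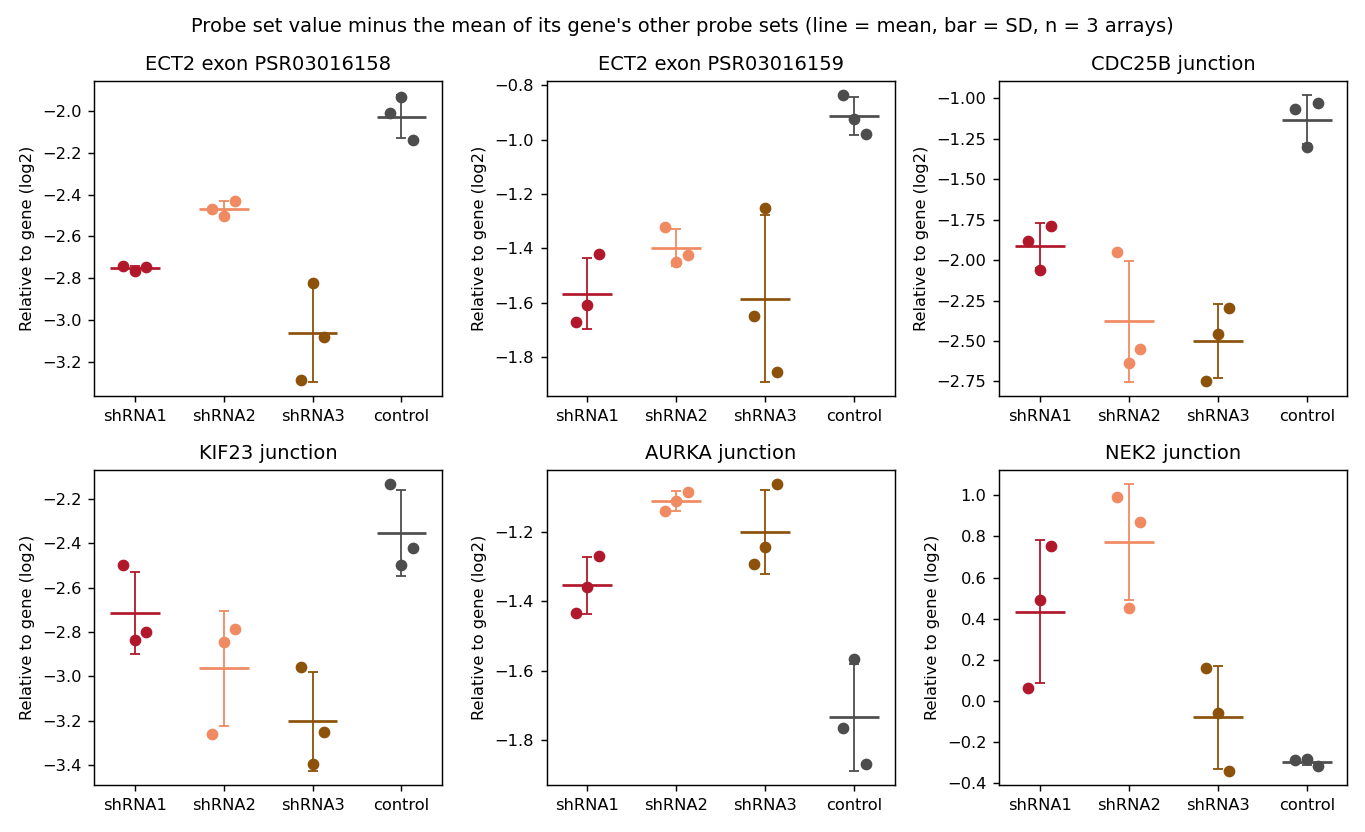
Log2 value of 6 member probe sets minus the average of their gene's remaining kept probe sets, on each array; points are arrays, lines group means and bars the SD of 3 arrays, with shRNA1, shRNA2, shRNA3 and control from left to right. ECT2 PSR03016158.hg.1 and CDC25B JUC20000312.hg.1 lie below every control array with each hairpin, and AURKA JUC20006897.hg.1 lies above.

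An AURKA junction rose relative to its gene. JUC20006897.hg.1 had relative values of -1.43, -1.36 and -1.27 with shRNA1, -1.14, -1.11 and -1.08 with shRNA2, -1.29, -1.24 and -1.06 with shRNA3, and -1.76, -1.57 and -1.87 with control. All knockdown arrays were above the controls, against a gene value that was below them. It rose 1.54-fold with shRNA2 (0.62, SE 0.08, adjusted p 0.0151), and with shRNA3 it was 1.45-fold higher (adjusted p 0.0209), under the fold limit. The shRNA2 call was lost without control replicate 3 (adjusted p 0.0636).

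Other junctions were called with 1 hairpin each. KIF23 JUC15002698.hg.1 fell with shRNA3 (-0.85, SE 0.15, adjusted p 0.0329), where its own log2 value averaged 6.43, under the level filter. CDC25C JUC05012830.hg.1 also fell with shRNA3 (-0.59, SE 0.10, adjusted p 0.0324), by 1.5-fold, at the fold limit. Each of these calls was lost without any single shRNA3 array and without control replicate 1 or 3, the KIF23 call also without control replicate 2. The adjusted p with replicate numbers as a block was 0.0544 for KIF23 and 0.0506 for CDC25C.

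With shRNA2, NEK2 JUC01030364.hg.1 rose 2.10-fold (1.07, SE 0.18, adjusted p 0.0270) and BIRC5 JUC17006559.hg.1 1.80-fold (0.85, SE 0.15, adjusted p 0.0317). With replicate numbers as a block, their adjusted p-values were 0.0542 and 0.0532, and both calls were lost without any single control array or shRNA2 replicate 1 or 3. The changes with shRNA1 were 0.73 for NEK2 (adjusted p 0.117) and 0.81 for BIRC5 (adjusted p 0.0519), and with shRNA3 they were 0.22 and 0.18.

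BUB1 JUC02018467.hg.1 rose 1.62-fold with shRNA2 (0.70, SE 0.13, adjusted p 0.0378). It differed between hairpins, being lower with shRNA3 than with shRNA2 (-0.99, adjusted p 0.0388), a difference that was not rerun under other settings. Its own log2 value averaged 6.56 with shRNA3, next to the level filter, and was 6.33 on shRNA3 replicate 3. It was the only member probe set called between hairpins, where 0.0189% of all probe sets were called between shRNA3 and shRNA2, 0.0177% between shRNA2 and shRNA1 and 0.00311% between shRNA3 and shRNA1. UBE2C JUC20002779.hg.1 rose 1.83-fold with shRNA2 (0.87, SE 0.17, adjusted p 0.0401), but its own value averaged 6.27 with control, under the level filter. Both shRNA2 calls were lost without any single control array, shRNA1 replicate 2 or 3, or shRNA2 replicate 1 or 3, the BUB1 call also without shRNA3 replicate 2 and the UBE2C call without shRNA2 replicate 2.

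Other genes of the cell division pathway were set beside the members. Of 21 regulators of mitotic entry outside the members, 1 fell and 1 rose with shRNA1, 6 fell and none rose with shRNA2, and 8 fell and 1 rose with shRNA3 (38.1% lower, against 14.8% of all genes). The shares lower with shRNA1 and shRNA2 were 4.76% and 28.6%, against 4.07% and 8.63% of all genes. The shares higher were 4.76%, 0% and 4.76%, against 5.99%, 5.92% and 12%. With replicate numbers as a block, 5 of these regulators fell with shRNA2, against 8.1% of all genes. FOXM1, the transcription factor of many G2 and M genes, fell with all 3 hairpins (-0.16, -0.14 and -0.21, SE 0.04, adjusted p 0.0274, 0.0336 and 0.00322), though its calls with shRNA1 and shRNA2 were lost without control replicate 1 or 3. The shRNA1 call was also lost without shRNA1 replicate 1 or 2, and the shRNA2 call without shRNA2 replicate 2 or 3. Neither held with exon probe sets only or with no filter on dim probe sets. E2F4, a subunit of the DREAM complex, fell with shRNA2 (-0.19) and shRNA3 (-0.26), CCNF, cyclin F, with the same hairpins (-0.18 and -0.15), and GTSE1, a microtubule protein of G2, with shRNA3 (-0.18). The GTSE1 call was lost without shRNA3 replicate 1 and with the median of its probe sets (-0.02, limma's adjusted p 0.828). With that median neither CCNF call held.

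Kinetochore and centromere genes outside the members numbered 26, of which none fell and 1 rose with shRNA1, 3 fell and 1 rose with shRNA2, and 9 fell and 1 rose with shRNA3. The shares lower were 0%, 11.5% and 34.6% with shRNA1, shRNA2 and shRNA3, against 4.07%, 8.63% and 14.8% of all genes. The share higher was 3.85% with each, against 5.99%, 5.92% and 12%. CENPH, of the inner kinetochore, rose with each hairpin (0.35, 0.21 and 0.19, SE 0.05, adjusted p 0.000726, 0.00909 and 0.0105). KNL1, a kinetochore scaffold, fell with shRNA2 (-0.39, SE 0.05, adjusted p 0.000391), with changes of -0.03 and -0.11 for shRNA1 and shRNA3, and the difference between shRNA2 and shRNA1 was itself called (-0.36, adjusted p 0.00147). MIS12, a partner of KNL1, fell with shRNA2 (-0.24) and shRNA3 (-0.17), and CENPN with shRNA3 (-0.24).

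Of 19 measured spindle and cytokinesis genes outside the members, 5 fell with shRNA3, 1 fell with shRNA2, and 1 rose with shRNA1. The shares lower were 26.3% with shRNA3 and 5.26% with shRNA2, against 14.8% and 8.63% of all genes. The share higher with shRNA1 was 5.26%, against 5.99%. ANLN, anillin of the contractile ring, fell with shRNA3 (-0.37, SE 0.04, adjusted p 4.83e-05), as did TACC3 (-0.15) and TUBB4B (-0.13), and KIF15 rose with shRNA1 (0.16). Among 16 measured condensin and cohesin genes, 4 fell with shRNA3 (25%), 1 with shRNA2 (6.25%) and none with shRNA1. Of all genes, 14.8%, 8.63% and 4.07% were called lower with these hairpins. STAG1, a cohesin subunit, fell with shRNA2 (-0.23) and shRNA3 (-0.42), and NCAPH2 (-0.13), WAPL (-0.10) and PDS5B (-0.10) with shRNA3, though PDS5B was not called with replicate numbers as a block (adjusted p 0.0649).

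Among the 15 genes of the anaphase-promoting complex, 4 fell with shRNA3 (26.7%), 3 with shRNA2 (20%) and none with shRNA1. The shares of all genes called lower were 14.8%, 8.63% and 4.07% in that order. CDC26 (-0.36 and -0.29), CDC16 (-0.19 and -0.26) and ANAPC10 (-0.16 and -0.22) fell with shRNA2 and shRNA3, and ANAPC7 (-0.19) with shRNA3. The ANAPC10 call with shRNA2 (limma's adjusted p 0.0477) was lost under 16 of 23 other settings.

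The lower calls with shRNA3 were not limited to genes of G2 and mitosis. Of 34 genes of the G1/S transition and DNA replication, 15 fell and 2 rose with shRNA3 (44.1% lower, against 14.8% of all genes), 8 fell and 1 rose with shRNA2, and 2 fell and 1 rose with shRNA1. The shares lower with shRNA2 and shRNA1 were 23.5% and 5.88%, against 8.63% and 4.07% of all genes. The shares higher with shRNA3, shRNA2 and shRNA1 were 5.88%, 2.94% and 2.94%, against 12%, 5.92% and 5.99%. CCNE2, cyclin E2, fell with shRNA2 (-0.26) and shRNA3 (-0.40), and TK1, thymidine kinase, with the same hairpins (-0.19 and -0.21). GINS3, of the replicative helicase, fell with all 3 (-0.18, -0.22 and -0.22, limma's adjusted p 0.0328, 0.0111 and 0.00684). Its call with shRNA1 was lost without any single control array or shRNA1 replicate 1 or 2, and that with shRNA2 without shRNA2 replicate 2. MCM7, a helicase subunit, rose with all 3 (0.27, 0.25 and 0.24, adjusted p 0.000690, 0.000895 and 0.000481). The G1/S genes' mean deviation was -0.011 to 0.044 on shRNA1 arrays, -0.028 to 0.003 on shRNA2 arrays, -0.067 to -0.021 on shRNA3 arrays, and 0.031 to 0.051 on control arrays. Of the 41 calls of genes named from these lists, 20 held without each array in turn, among them those of MCM7 with each hairpin, FOXM1, E2F4, CENPN, ANLN, STAG1, CDC16 and CCNE2 with shRNA3 and KNL1 with shRNA2. The other 21 were lost without at least 1 array, most often control replicate 1 (16 calls), control replicate 3 (13), shRNA3 replicate 1 (10) or shRNA2 replicate 2 (8).

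**Figure D5:**
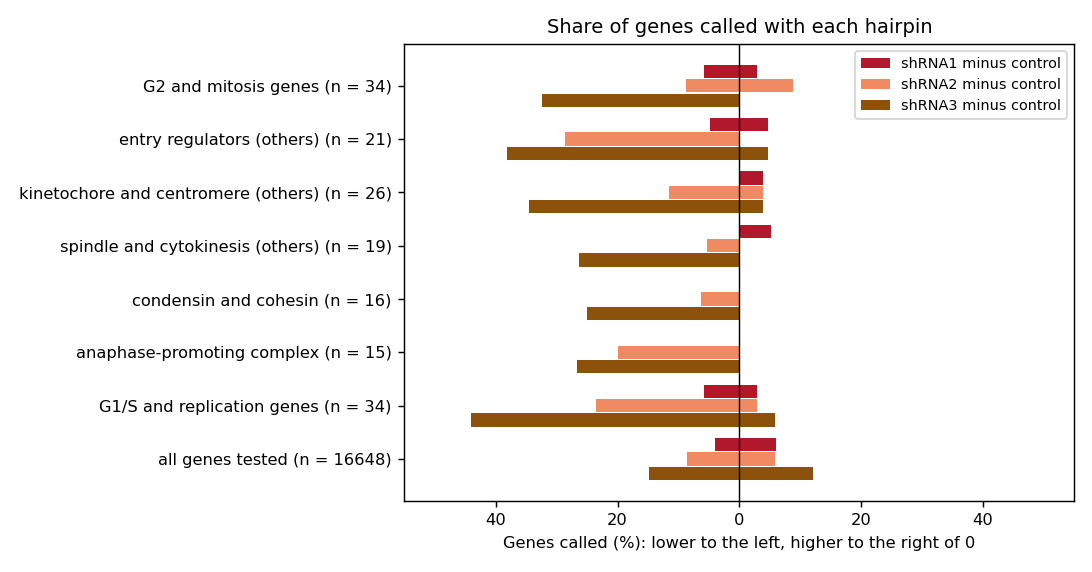
Percent of the measured genes of each list called lower (bars to the left) and higher (bars to the right) with shRNA1, shRNA2 and shRNA3 against control, beside all genes tested. With shRNA3, 32.4% of the G2 and mitosis genes and 44.1% of the G1/S genes were called lower, against 14.8% of all genes.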

How the data were processed

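RNA of 4 groups of 3 arrays (293T cells with shRNA1, shRNA2, shRNA3 or a non-target hairpin) was analysed from the deposited values. They are on a log2 scale and, per the submitters' processing notes, were made by the authors with Affymetrix Expression Console and RMA. For the tools' versions, their settings and the genome build, nothing is given in the sources used here. Array medians were 7.24 to 7.27, and correlations between arrays 0.991 to 0.995.

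Of 914585 features, 1530 controls were left out. Probe sets with 1 gene symbol were used, with symbols updated through RefSeq names and identical copies in a gene counted once. Probe sets whose mean exceeded the 40th percentile of all (log2 6.53) were kept. Gene values, means of at least 3 kept probe sets, and relative values, for genes with at least 4, were tested across all features with limma 3.58.1 (lmFit, eBayes, two-sided, R 4.3.3, data.table version 1.17.8). The 4 groups were fitted together, with 8 residual degrees of freedom and Benjamini-Hochberg adjustment. The steps were tested on simulated data.

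Same-numbered shRNA2 and control arrays deviated together (r 0.202, 0.432 and 0.264 over genes), which is not so for every number in any other pair of groups. The value with the replicate number as a block is therefore given beside the named gene values, and the named probe sets against control, whose call it changes. Whether replicates came from separate cultures is not stated, so a p-value reflects only how far these arrays spread, possibly for technical reasons. Precision is limited by how many arrays there are.

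The members, gene lists and tests were chosen with earlier results of these data known. All members are named. From each other list up to 4 genes are named, those with the largest mean change among those called. All member probe sets called with any hairpin are named. Alternatives were other filters, gene summaries, normalizations and fits, and each array left out in turn.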

Additional observations from a re-analysis of the deposited data

Results flagged for a closer look

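Effects of different hairpins against the same control differed by limma's direct test in 3 results. AURKB was lower with shRNA3 than with shRNA1 (-0.14 on the log2 scale, adjusted p 0.0377), with 3 of 3 shRNA3 arrays below all shRNA1 arrays. CDC20 was lower with shRNA3 than with shRNA1 (-0.15, adjusted p 0.0492), also in 3 of 3 arrays. Of 23 other settings, the AURKB difference kept its call in 13 and the CDC20 difference in 8. The relative value of the BUB1 junction JUC02018467.hg.1 was lower with shRNA3 than with shRNA2 (-0.99, adjusted p 0.0388), in 3 of 3 arrays, with its own log2 value at 6.56 with shRNA3, next to the level filter of 6.53. That BUB1 difference was not rerun under the other settings, where probe sets were compared with control only.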

How the results depend on the processing

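Of 75 called values rerun under 23 settings, 1697 value and setting pairs in all, 1340 kept their call, 357 lost it and 0 changed direction. Of those 75 values, 41 are of named genes outside the members, so these totals do not describe the members alone. The members called numbered 3 with shRNA1, 6 with shRNA2, 11 with shRNA3, 5 in the mean of hairpins, 0, 2 and 0 for shRNA2 against shRNA1, shRNA3 against shRNA1 and shRNA3 against shRNA2, and 2 with all hairpins. Their probe sets called relative to the gene numbered 1, 6 and 5 with shRNA1, shRNA2 and shRNA3. The counts that moved by over 1.5 times follow, and the cause was not tested. In brackets is the share of all genes called in either direction under the same setting. Such shares were not formed for calls with all hairpins or for probe sets. With no filter on dim probe sets they were 3 with shRNA2 (8.8%), 0 for shRNA3 against shRNA1 (4.38%), 1 with all hairpins, and 0 and 3 probe sets with shRNA2 and shRNA3. With the filter at the 60th percentile they were 6 with shRNA1 (12.2%), 9 in the mean (28%), and 2 probe sets each with shRNA1 and shRNA3. With exon probe sets only they were 5 with shRNA1 (11%), 10 in the mean (25.6%), 4 for shRNA3 against shRNA1 (7.8%), 2 for shRNA3 against shRNA2 (4.06%), and 0 and 2 probe sets with shRNA2 and shRNA3. Taking the median in place of the mean left 1 member called with shRNA1 (3.86%), 2 with shRNA2 (8.22%) and 5 with shRNA3 (13.4%). That setting gave 0 for shRNA3 against shRNA1 (1.75%), 0 with all hairpins and 2 probe sets with shRNA1. For shRNA3 against shRNA1 the count was 1 after quantile normalization (6.79%) and 1 with centred arrays (7.42%), which also gave 1 for shRNA3 against shRNA2 (3.72%). With only the groups compared in the fit, which cannot be run for the mean, they were 6 with shRNA1 (14.3%), 0 with shRNA2 (5.84%), 7 for shRNA3 against shRNA1 (20.1%), 0 with all hairpins, and 4, 0 and 2 probe sets with shRNA1, shRNA2 and shRNA3.

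With the replicate number as a block (replicate block), the members called were 3, 5 and 11 with shRNA1, shRNA2 and shRNA3 (against 9.1%, 14.1% and 25.9% of all genes), 6 in the mean (22%), 0 for shRNA3 against shRNA1 (5.29%) and 1 with all hairpins, and the probe sets were 1, 4 and 2. Of the members' gene values, the block ended the calls of AURKA with shRNA1, TPX2 with shRNA2, and AURKB and CDC20 between shRNA3 and shRNA1, and it gave a call for HMMR with shRNA1 and in the mean.

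With each array left out in turn, the members called ranged from 0 to 4 with shRNA1, 1 to 6 with shRNA2, 5 to 12 with shRNA3, 2 to 9 in the mean, 0 to 0 for shRNA2 against shRNA1, 0 to 4 for shRNA3 against shRNA1, 0 to 5 for shRNA3 against shRNA2 and 0 to 2 with all hairpins. The share of all genes called moved too, from 2.96% to 13.2% with shRNA1, 6.43% to 20% with shRNA2 and 13.1% to 31.1% with shRNA3. In the mean that share was 11.2% to 27.9%. Between hairpins it was 0.499% to 1.2% for shRNA2 against shRNA1 and 1.75% to 15.1% for shRNA3 against shRNA1. For shRNA3 against shRNA2 it was 1.47% to 8.92%. Probe sets ranged from 0 to 3, 0 to 10 and 2 to 5 with shRNA1, shRNA2 and shRNA3. Among settings added after seeing the data, leaving out both control replicate 1 and shRNA3 replicate 3 gave 2 members with shRNA2 (against 5.91% of all genes), 1 with shRNA3 (10.9%), 2 in the mean (10.4%), 0 for shRNA3 against shRNA1 (1.88%), 1 with all hairpins, and 0, 2 and 1 probe sets with shRNA1, shRNA2 and shRNA3. In that setting the member called with shRNA3 and with all hairpins was higher, while CCNB1 and AURKA were not called with shRNA3. Leaving out the probe sets called relative to their gene moved no count by over 1.5 times. With 3 arrays a group, signal near the level filter limits the KIF23, UBE2C, BUB1 and ECT2 probe sets.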
